A study of Arabidopsis thaliana with 8 samples.

Results

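The transcriptional response of Arabidopsis thaliana seedlings to 30 min of abscisic acid (ABA) was examined in plants carrying the empty pTA vector, without the ANAC096 transgene. The comparison rests on 4 of the 8 arrays of the series, 2 with ABA and 2 without, chosen by their titles. All seedlings were of the Col-0 background and 12 days old, raised at 23 °C in liquid MS under a daily cycle of 16 h light and 8 h dark. Both groups received 30 µM dexamethasone (Dex) for 1 h, so the steroid and the vector are common to the ABA plants and their controls. The ABA group also had 2 µM ABA during the last 30 min of that hour, whereas the control group had none. The other 4 arrays came from the pTA-ANAC096 line, with and without ABA (called ANAC096+ABA and ANAC096), and give the same ABA comparison in another line. How many independent transgenic lines or seedlings stood behind each array is not given in the sources used here, and p-values therefore reflect only how far these arrays scattered, although the series calls them 2 biological replicates per condition.

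ABA accumulates in plants under drought and osmotic stress and acts there as a hormone. It is bound by soluble receptors of the PYR/PYL family, and the bound receptors inhibit protein phosphatases that otherwise keep SnRK2 kinases inactive. The freed kinases phosphorylate bZIP transcription factors, which bind ABA-responsive elements in promoters and switch on genes for dehydration tolerance, while ion channels of guard cells respond in parallel and close the stomata. Dex, given to every group, is the steroid used to activate transgenes in pTA vectors.

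The arrays name their 43603 probes only by identifiers of the manufacturer, and neither the files nor the reference table pairs any of them with a gene. The results are therefore given for probes, and lists of ABA pathway genes or of shoot and root markers, which would check the labelled tissue, could not be applied. Whole seedlings were measured, so a lower signal could mean fewer cells of a type or less RNA per cell, which cannot be told apart. Levels are log2 signals relative to the 75th percentile of the same array, so a level of 0 equals that percentile, and differences are ABA minus control on this scale.

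On the 4 arrays, the number of probes well above background ran from 32732 to 34814, with 0 saturated spots. Both ABA arrays had fewer such probes (32732 and 33111) than the control arrays (33911 and 34814), and a higher median signal of the negative-control spots (10.2 and 9.78 against 7.25 and 6.24). All arrays shared a slide, but those with ABA lay in the other slide row, so row and ABA cannot be told apart. Tested were 34503 probes that both arrays of some group, of the 4 in the series, showed well above background, of which 31895 were so on all 4 arrays of this comparison.

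Differences between the groups were larger, by their median, than those between replicates. The control arrays differed from each other by a median of 0.0983 on the log2 scale and the ABA arrays by 0.0472, whereas the group means differed by a median of 0.224. A difference of at least 2-fold separated the control arrays at 332 probes (0.972%), the ABA arrays at 230 (0.672%) and the group means at 2268 (6.57%). The control replicates thus lay farther apart than the ABA replicates. Both ABA arrays lay above both control arrays for 29.3% of the 33940 probes with a value on all 4, and below both for 47.1%, which is a description with no test.

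**Figure D1:**
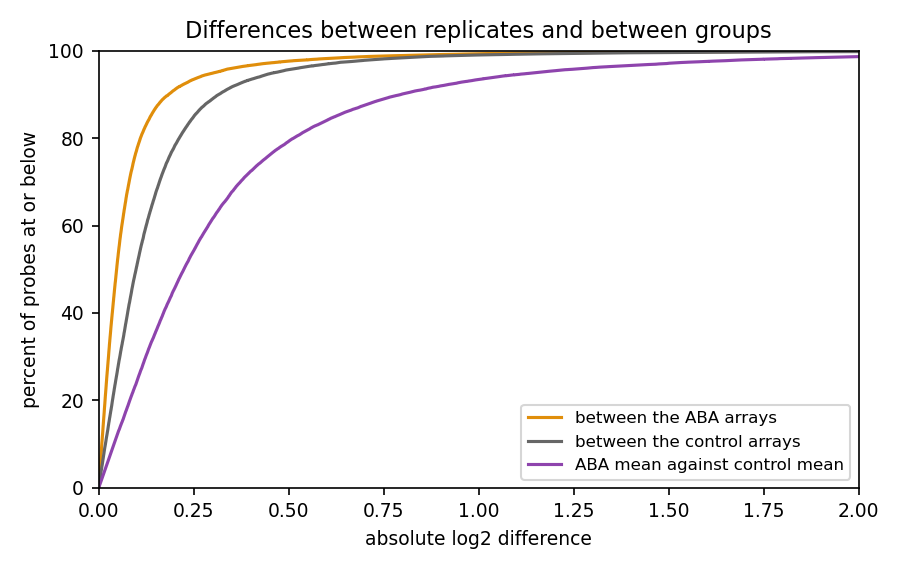
Cumulative share of probes (percent, vertical axis) at or below an absolute log2 difference (horizontal axis, shown up to 2) for the ABA arrays against each other, the control arrays against each other, and the ABA mean against the control mean. The group curve lies to the right of both replicate curves, with medians of 0.224 against 0.0472 and 0.0983.

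With ABA, 1460 probes rose at least 2-fold and 638 fell at least 2-fold at an adjusted p under 0.05 (limma), which are 4.23% and 1.85% of the probes tested. On this scale, though not at 2-fold with spike-in scaling, rises outnumbered falls at each of these sizes. At 4-fold, 370 probes were called higher (1.07%) and 72 lower (0.209%). At 8-fold 113 were higher (0.328%) and 16 lower (0.0464%), and at 16-fold 40 were higher (0.116%) and 2 lower (0.0058%). Small changes ran the other way: at any fold, 47.2% of the probes were called, 18.5% higher and 28.7% lower, and the median over all probes tested was -0.07.

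This balance depended on the reference used for scaling. The 7 E1A spike-in probes (RNA added in known amounts by the array protocol) that were measured on every array were higher on both ABA arrays than on both control arrays. Their mean log2 level was 0.04 ± 0.01 in control and 0.31 ± 0.06 with ABA (SD, n = 2). The shift was of similar size at all levels, from 0.21 to 0.34 per spike-in. In the ANAC096 line the spike-ins moved the opposite way, with mean levels of 0.73 and 0.60 without ABA and -0.17 and 0.07 with it. The cause of these shifts was not tested. Scaled to the spike-ins, the median change of all probes was -0.34 in the empty vector line and 0.70 in the ANAC096 line. In the empty vector line, 1017 probes were then at least 2-fold higher against 1508 lower. The excess of rises at 2-fold thus turned into an excess of falls. At 8-fold or more, rises still outnumbered falls on that scale, 82 to 23. Centring each array on its median gave 49.5% of called probes higher at any fold, against 39.2% with the 75th percentile.

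**Figure D2:**
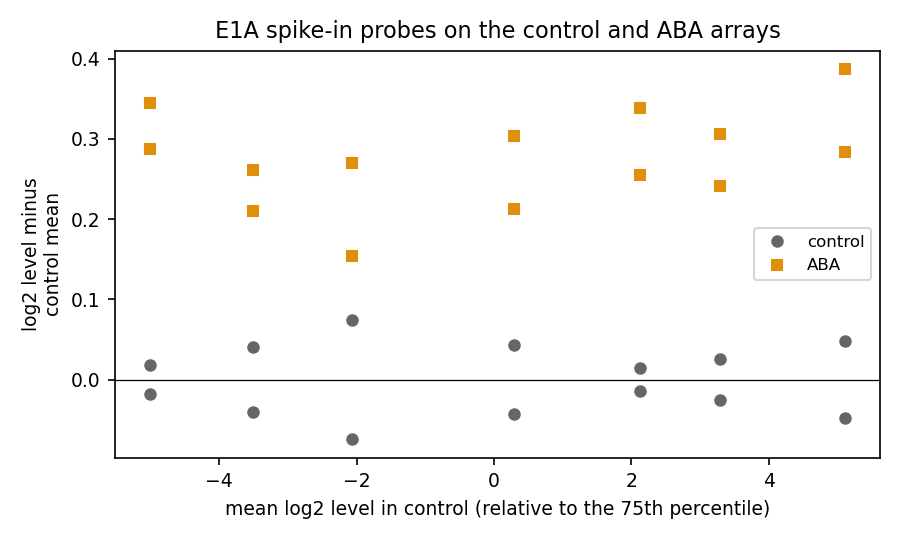
Log2 level of each E1A spike-in probe on each control array (circles) and ABA array (squares), minus the probe's control mean, against that control mean. Every square lies above every circle of the same spike-in, and the offset of the means is 0.21 to 0.34 across the range.

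Rises of 2-fold or more were found at every signal strength, whereas falls of that size were concentrated among dim probes. When the tested probes were split into 4 classes of equal size by their mean signal over the 4 arrays, the share at least 2-fold higher was 5.91% in the dimmest class and 4.38%, 3.48% and 3.15% in the next ones. The share at least 2-fold lower was 4.53%, 1.83%, 0.823% and 0.209% in the same order. In the brightest class 272 probes rose and 18 fell by this measure. Measurement error was also largest in the dimmest class, where the median standard error of the difference was 0.128, against 0.0596 in the brightest. The median signal of the negative-control spots was higher on the ABA arrays, and whether it had a part in the falls among dim probes was not tested.

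**Figure D3:**
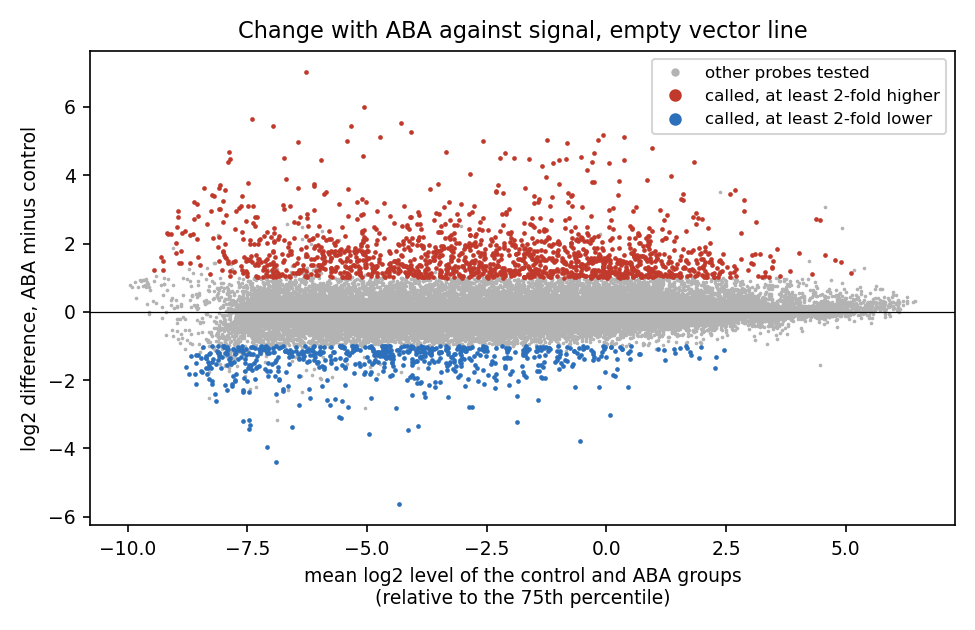
Log2 difference between ABA and control (vertical axis) against the mean log2 level of the groups (horizontal axis) for each of the 34503 probes tested. Called probes at least 2-fold higher (red, 1460) extend to the bright end, while those at least 2-fold lower (blue, 638) thin out there.

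The 2-fold changes were also described on single arrays. The probes had been chosen on these same arrays, which favours agreement among them, so the counts are no independent support. For 1211 of the 1460 higher probes (82.9%), each of the 4 differences between an ABA array and a control array was at least 2-fold, and for 448 of the 638 lower probes (70.2%). All 4 differences had the same direction for 1435 and 630 of them, and the remaining 25 and 8 lacked a value on an array. Over all 33940 probes with a value on all 4 arrays, both ABA arrays lay above both control arrays for 29.3% and below both for 47.1%. Most of the higher probes, 1272 (87.1%), were well above background on all 4 arrays, against 425 of the lower probes (66.6%). The higher probes had a median log2 change of 1.51 (median standard error 0.0737) and the lower ones of -1.29 (median standard error 0.0975).

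Replicate spots within an array gave a further measure of technical error. A total of 13234 tested probes had 2 usable spots on every array of the comparison, and the median difference between the spots of a probe was 0.0834 to 0.105 log2 units per array. Computed from each spot separately, the changes with ABA differed by a median of 0.0799. Of the 577 such probes that rose at least 2-fold, 516 (89.4%) did so from either spot taken alone, and of the 205 that fell, 146 (71.2%). The spots disagreed in direction for 0 of the 577 and for 1 of the 205. The probes had been called on the mean of these same spots, which favours agreement between them, so these counts are no independent support. Spots of a probe also share the RNA and the hybridisation, so this agreement says nothing about differences between seedlings.

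Among the probes with a measured level in both groups, the largest rise was that of A_84_P841862. Its log2 level was -7.00 and -7.11 on the control arrays and -1.51 and -1.51 on the ABA arrays. The groups did not overlap, which the rule for naming probes required. The replicates differed by far less than the groups, which the choice of the largest changes favours. The change was 5.54 (46.7-fold, SE 0.06, limma adjusted p 5.2e-07). From its first spot alone the levels were -6.95 and -6.90 in control and -1.46 and -1.38 with ABA. The second spot gave -7.04 and -7.32 against -1.56 and -1.63.

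The next largest rise belonged to A_84_P50530, with levels of -6.60 and -6.82 in control and -1.39 and -1.50 with ABA. Its change was 5.27 (38.6-fold, SE 0.09, limma adjusted p 1.2e-06). Both probes thus moved from near the dim end of the measurable range, where the dimmest probe well above background had a level of -8.08 or -8.17 on the control arrays, to levels between -1.51 and -1.39. Computed from median signals their changes were smaller. After normexp correction they were 4.47 and 4.13, and the authors' deposited log2 table gave 4.40 and 4.18.

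The largest fall was that of A_84_P174151, a probe with a single spot, from -1.41 and -1.62 in control to -7.01 and -7.26 with ABA. The change was -5.62 (49.3-fold lower, SE 0.16, limma adjusted p 4.6e-06). With ABA its level was close to the dimmest measurable signal on those arrays, -7.21 and -7.41, and the change was reduced to -4.12 after normexp correction, while the authors' deposited table gave -4.32. A_84_P197484 fell from 1.25 and 1.40 to -2.45 and -2.45, a change of -3.78 (13.7-fold lower, SE 0.08, limma adjusted p 2.3e-06). This probe was bright in control, and its change was -3.66 under both of those alternatives. The first of these falls thus ended near the detection limit, and the other did not.

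**Figure D4:**
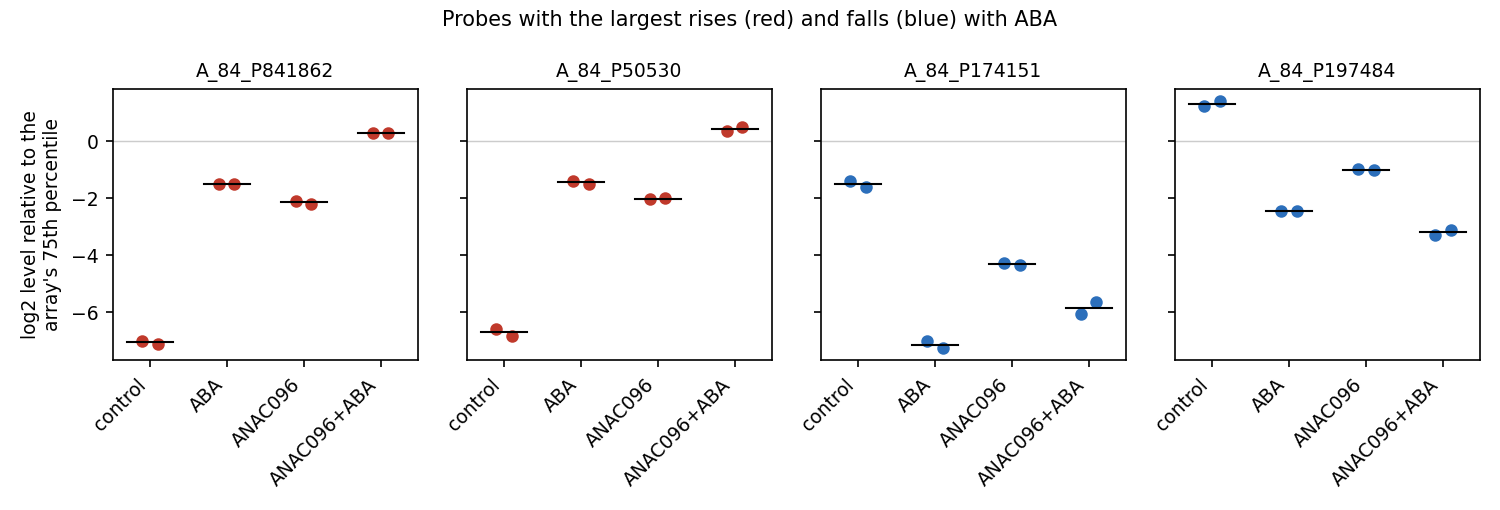
Log2 level relative to the 75th percentile on each of the 8 arrays (points) with the group mean (line), for the 2 probes with the largest rises and the 2 with the largest falls with ABA. Between the arrays without and with ABA, each of the 4 probes changed in the same direction in both lines, with smaller steps in the ANAC096 line.

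In the ANAC096 line these probes started from other levels. Without ABA, A_84_P841862 was at -2.08 and -2.20 and A_84_P50530 at -2.03 and -2.01. With ABA they were at 0.29 and 0.31, and at 0.37 and 0.51. Both rose with ABA in that line too, by 2.44 (limma adjusted p 4.4e-06) and 2.46 (limma adjusted p 1.2e-05). The changes were smaller than in the empty vector line on the log2 scale, with differences (ANAC096 line minus empty vector line) of -3.10 (SE 0.09, limma adjusted p 1.4e-05) and -2.81 (SE 0.13, limma adjusted p 5.3e-05). As the probes were chosen for their change in the empty vector line, a smaller change in the other line is favoured by the choice. A_84_P174151 was at -4.26 and -4.35 without ABA and -6.06 and -5.66 with it, and A_84_P197484 at -0.97 and -1.02 without and -3.28 and -3.11 with it. The changes with ABA in that line were -1.55 and -2.20 (limma adjusted p 6.0e-04 and 1.2e-05).

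The 113 probes that rose at least 8-fold were examined as a set. Of these, 72 were well above background on all 4 arrays, with control levels from -7.20 to 0.90 (median -3.09) and levels with ABA from -4.02 to 4.47 (median 0.80). Their changes ran from 3.03 to 5.54, with a median of 3.61. The median level with ABA thus lay above the 75th percentile. For 86 of the 113, every pairing of an ABA array with a control array gave at least 8-fold. The choice of these probes on the same arrays favours that count. Of the 16 probes that fell at least 8-fold, 6 were measured on all 4 arrays, with control levels from -2.41 to 1.57 and levels with ABA from -7.14 to -1.44. In the ANAC096 line, where 22.1% of all probes tested were called higher with ABA and 23% lower, 89 of the 113 were called higher, 7 lower and 17 neither, with a median change of 1.36. Of the 16, 9 were called lower there and 0 higher, with a median of -1.34.

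Some probes were measurable in only 1 of the groups. Called higher with ABA were 66 probes that were well above background on both ABA arrays and on no control array. Their size is a lower bound, set by the higher of the probe's own signal and the dimmest measurable signal on each array. By this bound 65 were at least 2-fold, 32 at least 4-fold and 11 at least 8-fold higher, and the largest of these bounds was 40.8-fold. Conversely, 329 called probes were well above background on both control arrays and on no ABA array. The bound gave a fall for 258 of these, but only 46 were at least 2-fold lower, 6 at least 4-fold and 1 at least 8-fold (8.39-fold). The dimmest measurable signal was higher on the ABA arrays, -7.21 and -7.41 against -8.08 and -8.17, which limits the bound of a loss more than that of a gain, so the sizes of gains and losses cannot be ranked.

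The arrays of the ANAC096 line, which entered the error estimate behind these calls but not the difference itself, gave the detection of the probes in another genotype. Of the 66 probes gained with ABA, 50 (75.8%) were well above background on both ANAC096+ABA arrays, and 49 (74.2%) on both ANAC096 arrays, where no ABA had been given. Of the 329 lost with ABA, 60 (18.2%) were measured on both ANAC096+ABA arrays and 187 (56.8%) on both ANAC096 arrays. Of all probes on the array, 75.1% and 75.8% were above background on the single ANAC096+ABA arrays and 78.1% and 78.9% on the ANAC096 arrays. Those rates count single arrays and include probes that were not tested, so they do not match the shares of the gained probes. Of the 34503 probes tested, 31117 were above background on all 8 arrays. The gained probes had been chosen for not being well above background on the control arrays, which favours lower detection on other arrays. Their lower rates than those of the tested probes are therefore no result about the gained probes. Of the 329 lost probes, 237 were above background on no ANAC096+ABA array. The lost probes were dim, with a median control level of -6.86. In this line too the dimmest measurable signal was higher with ABA, -7.38 and -7.38 against -7.78 and -7.74. The negative-control medians were likewise higher, 9.80 and 11.7 against 5.89 and 7.47. Whether these had a part in the lower detection with ABA was not tested.

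The arrays of the ANAC096 line also showed how far the 2-fold changes recurred in the ANAC096 line. There too the arrays with ABA lay in the other slide row, so a recurring change cannot tell ABA from row. Of the 1460 probes that rose in the empty vector line, 976 (66.8%) were called higher with ABA in the ANAC096 line at any fold and 177 were called lower there. Over all probes tested, 45.1% were called in that comparison, 22.1% higher and 23% lower. Of the 638 that fell, 426 (66.8%) were called lower and 27 higher. Judged by the lists at 2-fold, 406 probes were shared among the rises, which is 27.8% of the empty vector list and 55.8% of the 728 in the ANAC096 line (2.11% of the probes tested). Among the falls 237 were shared, 37.1% of the empty vector list and 16.6% of the 1428 in the ANAC096 line (4.14%). These shares also depend on the lengths of the lists.

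Recurrence was most frequent for the largest rises. Called higher in the ANAC096 line were 63.2% of the 1090 probes that had risen 2- to 4-fold, 77% of the 257 that had risen 4- to 8-fold, 74% of the 73 that had risen 8- to 16-fold, and 87.5% of the 40 beyond 16-fold. The median change in the ANAC096 line was 0.50, 0.89, 1.17 and 1.78 in these classes, against 1.34, 2.31, 3.39 and 4.65 in the empty vector line. For the falls the shares called lower were 65.9% of 566 probes at 2- to 4-fold, 78.6% of 56 at 4- to 8-fold and 8 of 14 at 8- to 16-fold. The classes with few probes carry little weight. No test was made of the trend.

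**Figure D5:**
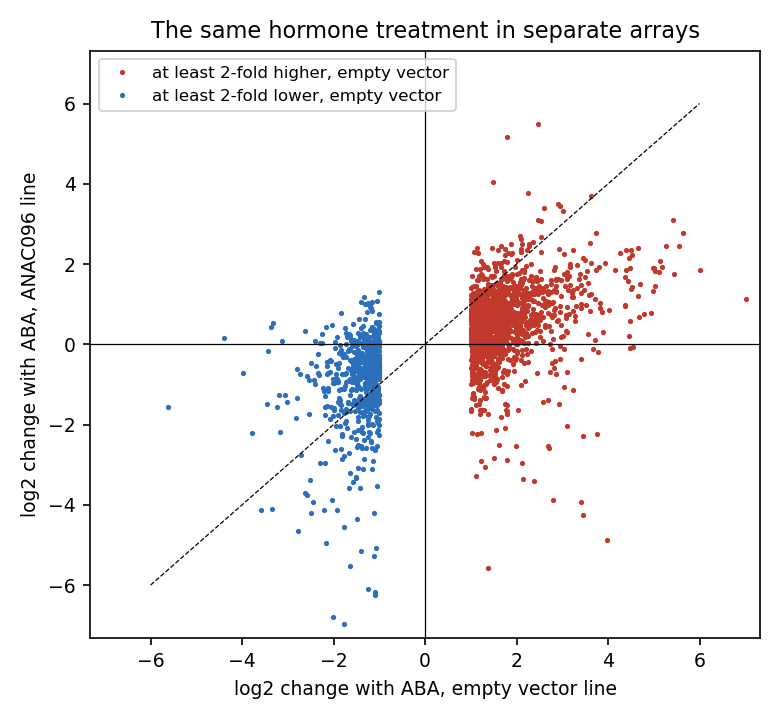
Log2 change with ABA in the ANAC096 line (vertical axis) against that in the empty vector line (horizontal axis) for the probes at least 2-fold higher (red, 1460) or lower (blue, 638) in the empty vector line. The dashed line marks equal change. Most red points lie above 0 and below the dashed line.

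The size of the ABA effect was then compared between the lines. On the 75th percentile scale the difference of the ABA effects between the lines was called (limma, adjusted p under 0.05) against the rise for 1173 of the 1460 probes (80.3%), in favour of it for 34, and not called for 253. For the 638 falls it was called against the change for 334 (52.4%) and in favour for 95. Against a minimum difference of 1.5-fold (limma treat), it was called against the change for 655 of the 1460 rises and 129 of the 638 falls. Over all probes 42% were called in this test, 23.2% with a higher and 18.8% with a lower ABA effect in the ANAC096 line. The probes had been chosen on arrays that enter the difference, which favours differences against the change. With spike-in scaling the count against the rise dropped to 455 and that in favour was 332, while the count against the fall was 550. On that scale 88.2% of the rises were called higher in the ANAC096 line, where 82.4% of all probes were called higher, and 35.3% of the falls were called lower, against 3.86% of all probes. The median level of the 1460 probes was -3.18 in control, -1.45 with ABA, -1.72 in ANAC096 and -1.12 in ANAC096+ABA on the 75th percentile scale. For the 638 probes it was -3.86, -5.22, -4.53 and -5.35 in the same order. The order of control and ABA is fixed by the choice of the probes, which also favours an extreme control level.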

How the data were processed

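The authors deposited each array's scanner output as linear spot intensity, extracted per the file headers by Feature Extraction 10.7.1.1 (protocol GE1_107_Sep09, design 031025). The deposited table of log2 values equalled quantile-normalized log2 median signals within 1.0e-08 and served as an alternative. From the intensities, log2 of the background-subtracted processed signal minus the 75th percentile over all 62976 spots was taken. Control spots (1319) were left out. Spots marked non-uniform in signal or background, or marked as population outliers, were also left out (467 to 1230 per array of this comparison). The remaining spots of a probe were averaged. A probe had to be well above background on both arrays of a group. A further 136 probes had no value in a group and were not tested, and 563 tested ones lacked a value on 1 or more of the 4 arrays. The 4 group means were estimated from all 8 arrays in limma 3.58.1 (R 4.3.3, lmFit and eBayes, 4 residual and 1.99 prior degrees of freedom), with Benjamini-Hochberg adjustment over all probes at 0.05. The fit was tested on simulated data. With 2 arrays per group, the smallest two-sided p of an exact permutation test is 0.33, so probe p-values rest on the model, and the number of arrays limits the precision. Named are the 2 largest rises and 2 largest falls among called probes with no overlap between the groups and well above background on all 4 arrays. The comparison and rules were chosen with earlier results of these data known. Gene lists fixed for this work were not used, as 0 identifiers matched the reference. As the files hold no mean signal, the normexp alternative (offset 50) used the median signal.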

Additional observations from a re-analysis of the deposited data

Results flagged for a closer look

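The effect of ABA differed between the lines by the interaction term of the limma fit at 14492 probes (42% of those tested), and this term is what drew attention to the results here. Among the named probes, the interaction (ANAC096 line minus empty vector line) was -3.10 for A_84_P841862 and -2.81 for A_84_P50530, both with smaller rises in the ANAC096 line. It was 4.07 for A_84_P174151 and 1.58 for A_84_P197484, both with smaller falls there (limma adjusted p 9.5e-05 and 2.4e-04). The 4 probes were chosen as the largest changes on arrays that enter the interaction, which favours a smaller change in the other line, so these p-values are no independent evidence of a difference between the lines. Over the 19 alternatives that gave an interaction, the values ran from -3.16 to -1.98, -2.92 to -1.75, 3.03 to 5.06 and 1.49 to 2.57.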

How the results depend on the processing

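The 4 named changes stayed past the threshold in the same direction in all 21 alternatives, the highest limma adjusted p being 0.00466. The number of probes at least 2-fold higher stayed within 1.5 times the reported 1460 (1017 to 1860). The other counts were less stable. With normexp correction 272 probes were at least 2-fold lower, and 66 were higher and 3 lower beyond 8-fold, so that 81.8% of the 2-fold calls were higher, against 69.6%. For the same counts, the authors' table gave 317, 64 and 3. Restricting the test to probes above background on all 8 arrays gave 395, 72 and 6, where fewer probes were tested. Of the 638 lower probes, 510 were still called lower after normexp correction, and 620 were in the authors' table. Scaling to the spike-ins gave 2839 higher and 16549 lower calls at any fold (14.6% higher), 1508 were at least 2-fold lower (40.3% of 2-fold calls higher), and 29759 were called for ABA in the ANAC096 line and 29809 for the interaction. Against a minimum change of 1.5-fold (limma treat), 2318 probes were called, 1646 higher and 672 lower (71% higher), with 2337 in the ANAC096 line and 2146 for the interaction. Without a filter on dim probes, 49.8% of called probes were higher. Leaving out 1 array gave 10576 to 16152 called probes, 5913 to 9486 of them lower, and 9508 to 15493 for the interaction. The lowest values came without ABA replicate 1 and leave 1 array in the group, which is then assumed to vary like the others. Without ABA replicate 2, 6344 were called lower. Deviations of same-numbered arrays correlated at -0.05 between control and ABA, and at -0.09 to 0.06 between the other groups. No shared effect of the replicate number was thus visible. Such values cannot exclude that same-numbered arrays were handled together. With the replicate block 15418 probes were called, and 10250 with the replicate block on the 4 arrays alone, 5624 of them lower. Fits of the 4 arrays alone give no interaction. Except as stated, the causes were not tested.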

Other observations

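The 2-fold changes had similar shares across the array surface. In 4 consecutive strips of spot rows, 4.32%, 4.16%, 4.24% and 4.32% of the spots belonged to probes at least 2-fold higher, and 1.71%, 1.64%, 1.84% and 1.86% to probes at least 2-fold lower. The median change with ABA per strip was -0.09, -0.07, -0.07 and -0.03.

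Probes with 5-digit identifiers, 14867 on the array, were tested more often (87.5%) than the 28736 with 6-digit identifiers (74.8%), and had a higher median level (-0.55 against -1.87). Of those tested, 4.50% and 4.07% were at least 2-fold higher and 2.06% and 1.72% at least 2-fold lower.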
